A study of Homo sapiens with 18 samples.

Results

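The 10 genes described here encode AP-1 subunits and immediate early factors, and they were taken from the expression tables by gene symbol, which matched 10 of 58302 listed genes once each. FOS, FOSB, FOSL1 and FOSL2 form the FOS family, JUN, JUNB and JUND form the JUN family, and ATF3, EGR1 and IER3 complete the set. FOSL1 encodes FRA1, which the study followed together with the tyrosine kinase SYK. RNA was sequenced from 3 human lung cancer cell lines, each as negative control cells (nc) and as cells carrying a lentiviral shRNA against SYK (shSYK), with 3 libraries in each of 6 groups. EBC-1 cells carry a MET amplification, and PC-9 and HCC827 cells carry an EGFR exon 19 deletion. The knockdown rests on 1 shRNA sequence, no inhibitor treatment is labelled, and nothing in the labels says whether the libraries of a group came from separate cultures, so p-values measure only the spread between these libraries, which may be technical. Levels are in FPKM, read fragments scaled to the length of the gene and to the depth of the library. In bulk RNA, fewer cells expressing a gene and less RNA per cell cannot be told apart.

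AP-1 is a dimer that binds DNA through basic leucine zippers. JUN proteins pair with each other or with FOS proteins, whereas FOS proteins need a JUN partner. FOS, FOSB, JUNB, ATF3, EGR1 and IER3 are classical immediate early genes, transcribed within minutes after growth factor receptors signal through ERK, and in many carcinoma cells the later and more stable FRA1 and FRA2 (encoded by FOSL2) take over as the main FOS-type partners. FRA1 is known for its part in invasion and in the epithelial to mesenchymal transition. EGR1 is a zinc finger factor, ATF3 is a stress-induced bZIP factor that can dimerize with JUN proteins, and IER3 is a short-lived protein tied to survival and ERK signalling.

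Promoter windows of 250 bases before to 50 bases after the start site were available from RefSeq (GRCh38.p14) for 8 of the 10 members, in 9 entries because ATF3 has a pair of them. The windows of FOSL1 and IER3 were not analysed here. Those of EGR1, FOS, JUNB and FOSL2 are shown because results below turn on these genes. Capitals mark matches to 5 motifs searched in either orientation, namely the GC box GGGCGG, the AP-1 site TGANTCA, the CRE core TGACGT, the TATA box TATAAA, and the CArG box bound by SRF.
EGR1, chr5:138465229-138465528, plus strand: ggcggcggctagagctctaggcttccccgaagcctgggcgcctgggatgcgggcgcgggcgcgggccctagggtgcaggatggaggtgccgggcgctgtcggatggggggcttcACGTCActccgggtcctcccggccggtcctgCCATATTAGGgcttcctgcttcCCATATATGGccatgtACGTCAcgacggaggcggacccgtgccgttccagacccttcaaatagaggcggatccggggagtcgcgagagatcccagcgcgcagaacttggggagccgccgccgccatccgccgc
FOS, chr14:75278578-75278877, plus strand: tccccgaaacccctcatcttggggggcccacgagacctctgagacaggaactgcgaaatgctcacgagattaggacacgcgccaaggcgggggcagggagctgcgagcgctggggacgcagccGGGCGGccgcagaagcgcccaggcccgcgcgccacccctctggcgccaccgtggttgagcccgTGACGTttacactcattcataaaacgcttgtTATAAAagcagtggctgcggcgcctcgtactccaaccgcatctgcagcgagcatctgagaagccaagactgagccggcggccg
JUNB, chr19:12791236-12791535, plus strand: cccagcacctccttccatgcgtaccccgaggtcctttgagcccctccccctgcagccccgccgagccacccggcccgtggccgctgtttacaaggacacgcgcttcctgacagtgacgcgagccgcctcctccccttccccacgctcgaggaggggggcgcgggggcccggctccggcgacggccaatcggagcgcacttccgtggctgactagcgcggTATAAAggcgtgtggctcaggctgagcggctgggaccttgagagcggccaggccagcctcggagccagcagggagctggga
FOSL2, chr2:28392608-28392907, plus strand: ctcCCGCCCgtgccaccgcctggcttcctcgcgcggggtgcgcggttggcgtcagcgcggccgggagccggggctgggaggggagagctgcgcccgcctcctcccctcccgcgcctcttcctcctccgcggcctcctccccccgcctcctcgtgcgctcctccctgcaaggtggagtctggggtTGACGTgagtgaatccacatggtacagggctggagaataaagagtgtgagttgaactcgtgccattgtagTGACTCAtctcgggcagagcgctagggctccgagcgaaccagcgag
EGR1 held 2 CArG boxes, CCATATTAGG starting 105 bases and CCATATATGG starting 83 bases before the start site, and its window also held 2 CRE cores, starting 136 and 67 bases before it. A CArG box was found in 1.29% of all 35116 promoter windows and in no window of the other members searched. Sites more than 250 bases before a start site and variants of the motif letters were not searched, so a window without a match does not show that the gene lacks the site. FOS held a CRE core 64 bases and a TATA box 33 bases before the start. The JUNB window held a TATA box 31 bases before the start as its only match. Among the member windows only that of FOSL2 held a match to the AP-1 site as searched, TGACTCA, which starts at base 5 after the start site. Such a site was found in 7.71% of all windows. The CRE core was found in 5 member genes (FOS, FOSB, FOSL2, JUND and EGR1) against 7.98% of all windows, the TATA box in 4 against 11.5%, and the GC box in 6 against 45%. A match describes letters in the window and is not evidence of binding.

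**Figure D1:**
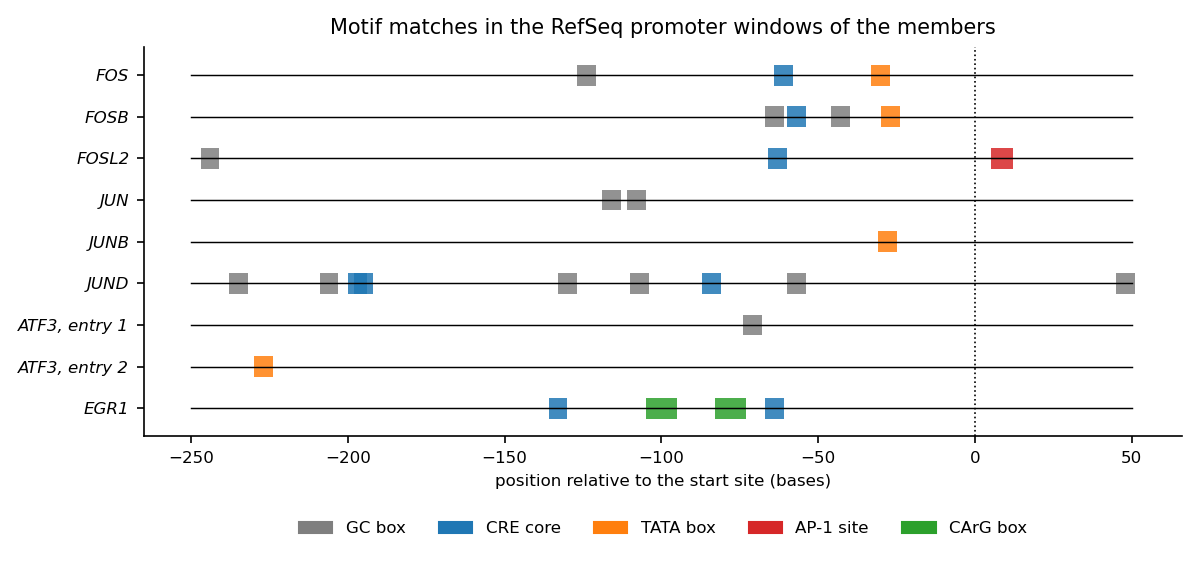
Positions of motif matches in the 9 RefSeq promoter windows of 8 members, with the distance from the start site in bases on the x axis and 1 line per window. Among these windows only that of EGR1 holds CArG boxes, at 105 and 83 bases before the start, and only that of FOSL2 holds a match to the AP-1 site as searched.

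The libraries held 7920099 to 15729103 reads on genes. SYK itself fell in all lines, and no shSYK library reached the lowest nc library of its line, at 14.2 ± 1.07 FPKM in nc against 7.43 ± 0.189 in shSYK in EBC-1 (SD, n = 3 here and below), 6.51 ± 0.698 against 2.09 ± 0.389 in PC-9 and 9.08 ± 0.649 against 2.99 ± 0.472 in HCC827. Relative to nc, 52.3% of SYK remained in EBC-1, with 32.1% left in PC-9 cells and 32.9% left in HCC827 cells. In PC-9 the first nc library stood apart, where the chi-square of its reads against the second nc library was 38.66 per degree of freedom and all other replicate pairs of the series lay between 2.11 and 14.31. All 6 epithelial markers were above the filter in each line, and their summed level ran from 1413 to 5834 FPKM over the libraries, against at most 8.37 for 6 fibroblast, 5.92 for 6 leukocyte and 17 for 5 endothelial markers. At 0 in all libraries were 4 fibroblast and 2 endothelial markers in EBC-1, 3 fibroblast markers in PC-9 and 2 leukocyte markers in HCC827. The epithelial sum was 1930 to 2209 FPKM in nc and 1413 to 1518 in shSYK of EBC-1, and these ranges overlapped in the other lines. By the test described below, 4 epithelial markers fell in EBC-1 (CDH1, KRT7, KRT18 and KRT19) and 2 in HCC827 (CDH1 and KRT19), CD79A rose in HCC827 and PECAM1 fell in PC-9; these markers were named after their values were seen, and their part in the results below was not tested.

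Changes between shSYK and nc were tested with limma on log2(FPKM + 1) over all genes whose FPKM averaged 1 or more in the line, with Benjamini-Hochberg adjustment over all of them and a threshold of 0.05. Because 1 is added before the logarithm, the log2 fold change of a gene with few FPKM is smaller than the ratio of its means. FOSB was under the filter in every line, so 9 members were tested. In EBC-1, 5 of 9 changed, namely EGR1 upward and FOSL2, JUNB, ATF3 and IER3 downward, where 44.7% of all 12430 tested genes changed (23.1% upward and 21.6% downward). HCC827 also had 5 changes, FOSL1 upward and FOS, JUNB, EGR1 and IER3 downward, beside 38% of 11999 tested genes (17.2% upward and 20.7% downward). In PC-9 no member passed the threshold by limma, and limma-voom on the recovered reads also called 0. An unadjusted p under 0.05 by limma was reached by 2 members (FOS and ATF3) and by 1881 of all 12089 tested genes. After adjustment 2.09% of these genes changed (0.678% upward and 1.41% downward). That count of 253 genes was 621 without the first nc library, 503 without the second and 7 to 24 without any of the other 4 PC-9 libraries, with 0 members in each case. With 9 members and these shares of all genes, nothing is read from the counts beyond the genes named. FPKM values of nc and shSYK were fully apart for 6 of the 9 tested members in EBC-1, where this held for 56.9% of tested genes, for 3 in PC-9 (23.7%) and for 5 in HCC827 (52.3%). The median log2 fold change of the 9 tested members was -0.31, 0.16 and -0.20 for EBC-1, PC-9 and HCC827, and that of all tested genes was 0.0090, 0.0088 and -0.0053.

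**Figure D2:**
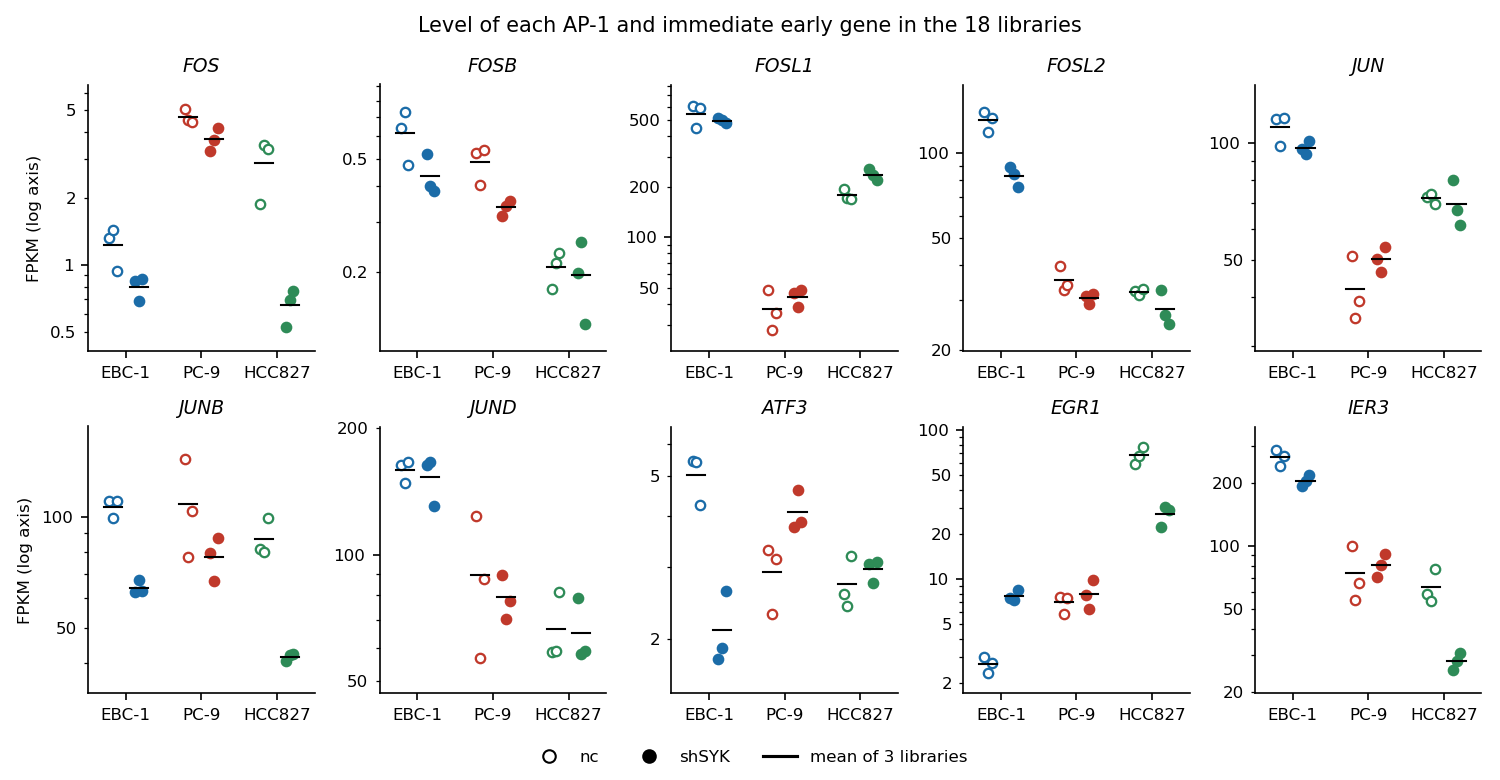
FPKM of each of the 10 members in every library, on a log axis that differs between panels, with open circles for nc, filled circles for shSYK and a bar for the mean of 3 libraries. EGR1 rose in EBC-1 from 2.71 to 7.72 FPKM and fell in HCC827 from 68.0 to 27.5 FPKM, and JUNB lay lower in shSYK without overlap in these same lines.

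FOSL1 was the most abundant FOS family transcript in EBC-1 and HCC827, and it rose after SYK knockdown only in HCC827 among the 3 lines by this test. In PC-9 nc its mean was close to that of FOSL2, at 37.2 against 35.5 FPKM, and the second nc library held more FOSL2. The mean of FOSL1 in PC-9 shSYK was above that of FOSL2, at 44.2 against 30.5 FPKM. In HCC827 its levels were 194, 172 and 169 FPKM in the nc libraries and 255, 234 and 219.7 FPKM in the shSYK libraries. Every shSYK library was above every nc library, the mean was 1.33-fold higher, and the log2 fold change was 0.41 (SE 0.079, adjusted p = 0.00666). With the spread of all 18 libraries in 1 fit, the adjusted p of this rise was 0.0694. In EBC-1 the nc libraries held 606, 446 and 586 FPKM and the shSYK libraries 511, 497 and 479.6 FPKM. The groups overlapped, because the second nc library was lower than all others, and the log2 fold change of -0.13 (adjusted p = 0.406), with a 95% interval of -0.40 to 0.15, turned to 0.15 (adjusted p = 0.157) after quantile normalization and to -0.27 (adjusted p = 0.00788) without that library. PC-9 had far lower levels, 48.3, 27.9 and 35.4 FPKM in nc and 46.2, 38.1 and 48.3 FPKM in shSYK. The first PC-9 nc library was as high as the shSYK libraries, and the log2 fold change was 0.27 (adjusted p = 0.592) with all libraries and 0.47 (adjusted p = 0.104) without it. That was the upper end of a range from 0.086 to 0.47 when single PC-9 libraries were left out, and none of these passed. FOSL1 lies at chr11:65892049-65900573 on the minus strand of hg38.

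FOSL2, which encodes FRA2, fell in EBC-1, where the nc libraries held 140.1, 119 and 134 FPKM and the shSYK libraries 89.5, 84.5 and 75.8 FPKM. The groups were apart, with a mean 1.57-fold lower in shSYK and a log2 fold change of -0.65 (SE 0.09, adjusted p = 0.00151). The PC-9 levels, 39.6, 32.7 and 34.1 FPKM in nc and 31, 29.0 and 31.6 FPKM in shSYK, did not overlap either, but the log2 fold change of -0.20 (adjusted p = 0.438) did not pass the threshold. In HCC827 the values were 32.3, 31.4 and 32.8 FPKM in nc and 32.5, 26.6 and 24.7 FPKM in shSYK. Only the first shSYK library reached the nc range, and the log2 fold change of -0.20 (adjusted p = 0.13) became -0.31 (adjusted p = 0.0117) without it. FOSL2 (chr2:28392448-28417312, plus strand) shares bases with an antisense RNA, FLJ31356, and a sense intronic RNA, AC104695.3, neither above 1.25 FPKM in any library. Whether counting used strand is not given in the sources used here, and without it reads of overlapping genes cannot be told apart.

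FOS was scarce in all lines and fell in HCC827. There the nc libraries held 1.88, 3.47 and 3.35 FPKM and the shSYK libraries 0.525, 0.697 and 0.764 FPKM, which rest on 44 to 132 and 17 to 27 reads per library. The mean was 4.38-fold lower, the groups did not overlap, and the log2 fold change was -1.21 (SE 0.18, adjusted p = 0.00227). In EBC-1, 1.32, 1.44 and 0.943 FPKM in nc stood against 0.851, 0.686 and 0.863 FPKM in shSYK, from 26 to 45 reads per shSYK library. These groups did not overlap, and the log2 fold change of -0.31 (adjusted p = 0.09) did not pass, whereas limma-voom on recovered reads gave -0.61 (adjusted p = 0.0476), near the threshold. PC-9 had the highest FOS level of the lines, 5.08, 4.54 and 4.44 FPKM in nc and 3.27, 3.67 and 4.17 FPKM in shSYK. All 3 shSYK libraries lay below the nc libraries, at a log2 fold change of -0.28 (adjusted p = 0.272). FOS lies at chr14:75278774-75282230 on the plus strand.

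FOSB was below 1 FPKM throughout and got no test. Its levels were 0.640, 0.727 and 0.473 FPKM in nc and 0.518, 0.400 and 0.384 FPKM in shSYK of EBC-1, from 26 to 51 reads per library. In PC-9 they were 0.523, 0.403 and 0.535 FPKM and 0.316, 0.342 and 0.355 FPKM, the only line without overlap between the groups. In HCC827 they were 0.174, 0.215 and 0.234 FPKM and 0.198, 0.254 and 0.132 FPKM, from 7 to 15 reads, a depth at which a difference of this size was not detectable. FOSB (chr19:45467995-45475179, plus strand) lies in full within bases shared with ERCC1 on the opposite strand, a DNA repair gene with up to 22.3 FPKM, and the part of its reads in the FOSB values was not tested.

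JUNB was the JUN family member that fell, in EBC-1 and in HCC827. JUNB is a partner of FOS proteins that can restrain JUN activity in some settings. In EBC-1 the nc libraries held 109.9, 98.8 and 110.4 FPKM and the shSYK libraries 62.3, 67.3 and 62.8 FPKM, and in HCC827 81.8, 79.9 and 98.9 FPKM and 40.6, 42.1 and 42.3 FPKM. In both lines the groups were far apart. The mean was 1.66-fold lower in EBC-1, with a log2 fold change of -0.72 (SE 0.071, adjusted p = 0.000413), and 2.09-fold lower in HCC827, with -1.04 (SE 0.084, adjusted p = 0.000255). PC-9 nc libraries varied widely, at 143, 77.8 and 104 FPKM, against 79.5, 67.0 and 87.2 FPKM in shSYK. The lowest nc library lay within the shSYK range, and the log2 fold change was -0.43 (adjusted p = 0.403), or -0.21 (adjusted p = 0.439) without the first nc library. The JUNB gene (chr19:12791496-12793315, plus strand) lies wholly within HOOK2 on the opposite strand. HOOK2 fell in EBC-1 from 28.6 to 17.8 FPKM (log2 fold change -0.65, adjusted p = 0.000333) and was at 10.7 and 9.18 FPKM in nc and shSYK of HCC827 (-0.20, adjusted p = 0.0587), and the part of shared reads in the JUNB values was not tested.

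JUN, the strongest activator of the family, passed the threshold in no line with all libraries. Its EBC-1 levels were 115, 98.2 and 116 FPKM in nc and 96.6, 93.4 and 101 FPKM in shSYK, overlapping only through the second nc library. The log2 fold change was -0.17 (adjusted p = 0.124), and -0.25 (adjusted p = 0.0136) without that library. In PC-9, 51.2, 35.4 and 39.3 FPKM in nc and 50.1, 46.4 and 53.9 FPKM in shSYK gave 0.26 (adjusted p = 0.467), with the first nc library inside the shSYK range. In HCC827, 72.5, 73.6 and 69.7 FPKM and 80.0, 67.1 and 61.4 FPKM gave -0.057 (adjusted p = 0.661), with a 95% interval of -0.28 to 0.16 and a sign that turned under equal-sum scaling (0.0031). JUN lies at chr1:58780788-58784327 on the minus strand.

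JUND, usually the most constant AP-1 gene, also passed the threshold in no line. The log2 fold changes were -0.059 (adjusted p = 0.673) in EBC-1, -0.11 (adjusted p = 0.907) in PC-9 and -0.022 (adjusted p = 0.928) in HCC827, with 95% intervals of -0.30 to 0.19, -0.72 to 0.51 and -0.39 to 0.35. These signs are not stable, since equal-sum scaling (TPM) turned those of EBC-1 (0.071) and HCC827 (0.039), and leaving out the first nc library turned that of PC-9 (0.16). The nc and shSYK libraries overlapped in all 3 lines, and in PC-9 the nc values alone ran from 56.7 to 124 FPKM. JUND lies at chr19:18279760-18281622 on the minus strand.

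EGR1 moved in opposite directions in EBC-1 and HCC827. In EBC-1 it stood at 3.03, 2.35 and 2.76 FPKM in nc and 7.51, 7.22 and 8.43 FPKM in shSYK. Each shSYK library was far above each nc library, the mean was 2.85-fold higher, and the log2 fold change was 1.24 (SE 0.10, adjusted p = 0.00017). In HCC827 the nc libraries held 59.2, 67.1 and 77.6 FPKM and the shSYK libraries 22.6, 30.7 and 29.2 FPKM. Here the groups were apart in the other direction, 2.48-fold lower in the mean, with a log2 fold change of -1.28 (SE 0.13, adjusted p = 0.000594). Even so, the HCC827 shSYK libraries kept more EGR1 than any library of the other lines. PC-9 held 7.59, 5.87 and 7.52 FPKM in nc and 7.79, 6.36 and 9.86 FPKM in shSYK, which overlapped, at 0.16 (adjusted p = 0.716). The gene, at chr5:138465490-138469315 on the plus strand, is the one whose window above carries the 2 CArG boxes. RNA of SRF, which binds such boxes, fell in EBC-1 from 34.7 to 25.1 FPKM (log2 fold change -0.45, adjusted p = 0.00365). SRF did not pass in PC-9 (0.039, adjusted p = 0.951) or HCC827 (0.011, adjusted p = 0.917). These SRF values were singled out after they were seen, and the part of SRF or of the boxes in the EGR1 changes was not tested.

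IER3 fell in EBC-1 and in HCC827. In EBC-1 the levels were 287, 242 and 269 FPKM in nc and 193, 204 and 218 FPKM in shSYK, without overlap. The log2 fold change was -0.37 (SE 0.083, adjusted p = 0.00974), and in the fit of all 18 libraries its adjusted p was 0.0982. In HCC827 the values of 58.8, 54.3 and 77.6 FPKM fell to 25.5, 28.2 and 30.5 FPKM, 2.27-fold lower in the mean, with a log2 fold change of -1.14 (SE 0.13, adjusted p = 0.000939). PC-9 libraries overlapped, at 99.8, 55.2 and 66.1 FPKM in nc and 70.9, 81.3 and 91.3 FPKM in shSYK, with 0.17 (adjusted p = 0.78). IER3 (chr6:30743199-30744554, minus strand) shares bases with the antisense RNA AL662797.2, which had at most 2 reads in a library.

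ATF3 fell only in EBC-1 by this test. The nc libraries held 5.44, 5.41 and 4.24 FPKM and the shSYK libraries 1.79, 1.90 and 2.62 FPKM, from 90 to 144 reads per shSYK library. The groups were apart, 2.39-fold lower in the mean, and the log2 fold change was -0.96 (SE 0.13, adjusted p = 0.00138). In PC-9 the order was the reverse without overlap, 3.29, 2.30 and 3.13 FPKM in nc and 3.75, 4.62 and 3.85 FPKM in shSYK, but the log2 fold change of 0.38 (adjusted p = 0.224) did not pass. HCC827 held 2.57, 2.40 and 3.19 FPKM and 3.05, 2.75 and 3.08 FPKM, which overlapped, at 0.094 (adjusted p = 0.478). ATF3 lies at chr1:212565334-212620777 on the plus strand.

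**Figure D3:**
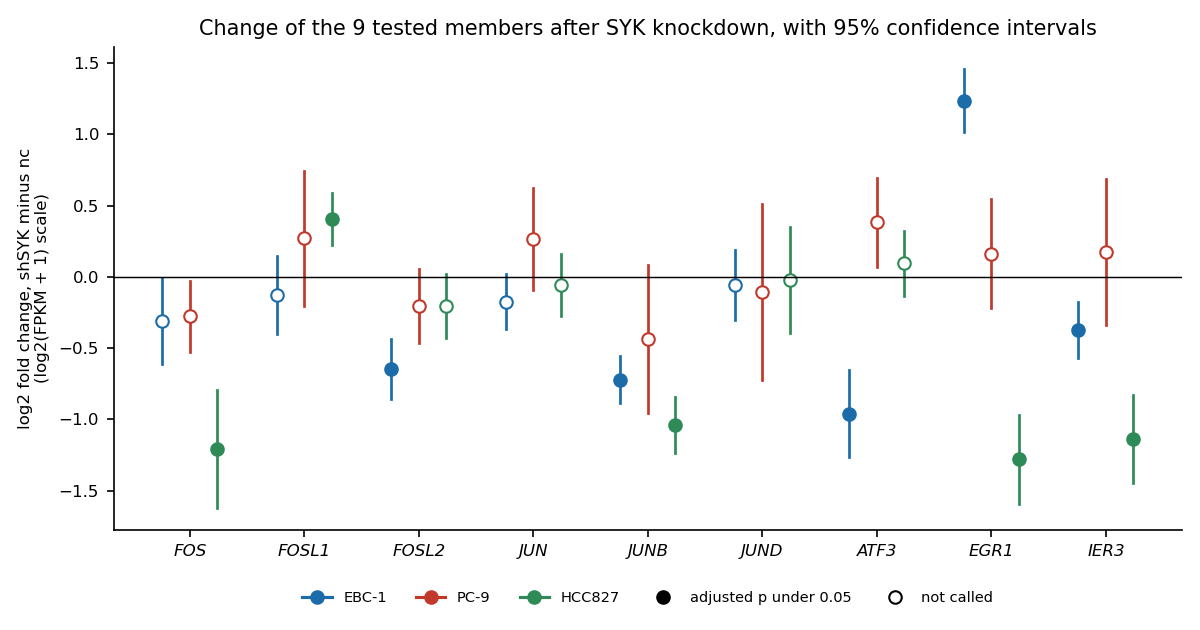
Log2 fold change (shSYK minus nc, on the log2(FPKM + 1) scale) of the 9 tested members in EBC-1, PC-9 and HCC827 with 95% confidence intervals, filled where the adjusted p was under 0.05. EGR1 is the member with filled points on both sides of 0, at 1.24 in EBC-1 and -1.28 in HCC827.

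In all 3 lines FOSL1 held a larger part of the FOS family, and JUNB a smaller part of the JUN family, in each shSYK library than in each nc library. Shares were taken within a library, as a member's percent of the summed FPKM of its family, so they do not depend on how the libraries are scaled, and they got no test. Full separation of nc and shSYK was common, since 23.7% (PC-9) to 56.9% (EBC-1) of tested genes showed it in FPKM. A background for shares is not given here. FOSL1 made up 80.3% ± 1.42 of the FOS family in EBC-1 nc and 85.5% ± 0.641 in shSYK. The mean FOSL1 level of this line was not higher, at 546 FPKM in nc and 496 FPKM in shSYK with overlap. FOSL2 fell there from 131 to 83.3 FPKM, and the mean family sum was 679 FPKM in nc and 580 FPKM in shSYK. The larger EBC-1 share thus came without a higher FOSL1 level. In PC-9 the FOSL1 share was 47.3% ± 4.55 in nc and 56.0% ± 2.11 in shSYK, and in HCC827 it was 83.4% ± 1.37 and 89.2% ± 0.618. FOSL2 held most of the remainder and its share was lower, at 19.4% ± 1.33 against 14.3% ± 0.645 in EBC-1, 46.0% ± 3.77 against 38.9% ± 1.74 in PC-9 and 15.1% ± 0.908 against 10.5% ± 0.682 in HCC827. FOS itself reached 6.11% ± 0.762 in PC-9 nc and was at most 1.68% in any EBC-1 or HCC827 library. The summed FOS family level ran from 77.8 FPKM in PC-9 nc to 679 FPKM in EBC-1 nc.

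Within the JUN family the JUNB share was the one that was lower. It was 28.3% ± 0.286 in nc and 20.4% ± 0.999 in shSYK of EBC-1, 45.3% ± 0.445 and 37.5% ± 2.02 in PC-9, and 38.5% ± 0.981 and 23.9% ± 3.05 in HCC827. These shares did not overlap in any line, also in PC-9, where the level of JUNB did. The PC-9 nc libraries, with JUNB levels 77.8 to 143 FPKM, agreed in the JUNB share to within 45.0% and 45.8%. JUN took 32.2% ± 3.74 in HCC827 nc and 39.4% ± 1.36 in shSYK, and JUND 29.3% ± 2.84 and 36.8% ± 2.45, without overlap. In EBC-1 the JUN shares overlapped, at 28.5% to 29.7% in nc and 28.5% to 34.4% in shSYK, and JUND was higher, at 42.0% to 42.9% and 44.3% to 50.9%. In PC-9 the JUN share was higher, at 16.1% to 20.8% and 22.9% to 25.2%, and the JUND shares overlapped, at 33.3% to 38.9% and 35.5% to 40.8%. As shares add up to the whole, a lower share of a member raises those of the others.

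**Figure D4:**
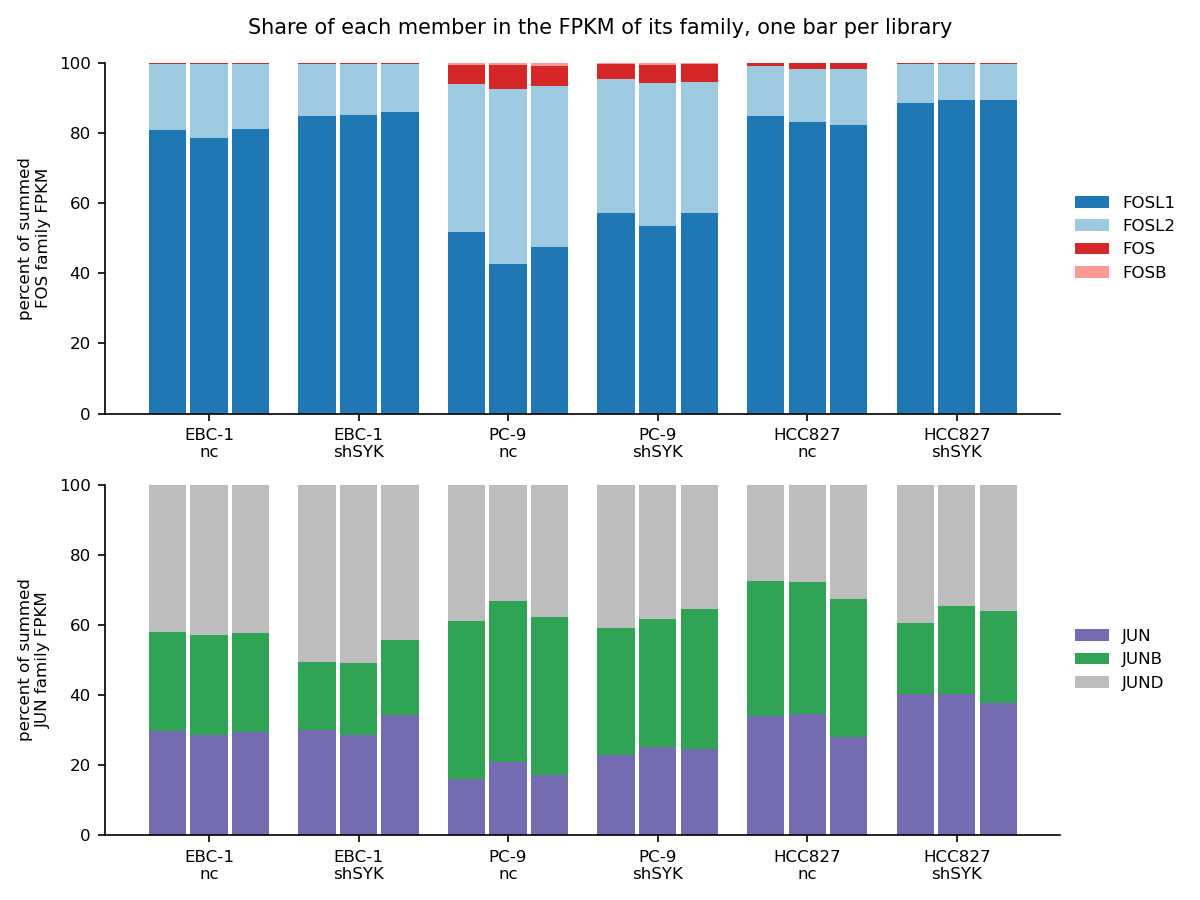
Percent of the summed FPKM of the FOS family (top) and the JUN family (bottom) taken by each member, with 1 stacked bar per library and 3 bars per group. The FOSL1 part is larger and the JUNB part smaller in the shSYK bars than in the nc bars of each line.

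Whether a member responded to SYK knockdown unequally in the lines was tested as the difference of its log2 fold changes in a fit of all 18 libraries. EGR1 differed in all 3 pairs. The EBC-1 effect was above that of HCC827 by 2.52 (95% interval 2.07 to 2.96, adjusted p = 9.07e-07) and above that of PC-9 by 1.07 (95% interval 0.63 to 1.52, adjusted p = 0.00242), and the PC-9 effect was above that of HCC827 by 1.44 (95% interval 0.99 to 1.89, adjusted p = 0.000416). ATF3 set EBC-1 apart, with a difference of -1.34 (95% interval -1.73 to -0.96, adjusted p = 0.000129) from PC-9 and -1.05 (95% interval -1.44 to -0.67, adjusted p = 0.000677) from HCC827. FOS set HCC827 apart, with the EBC-1 effect above it by 0.90 (95% interval 0.47 to 1.33, adjusted p = 0.00507) and the PC-9 effect by 0.93 (95% interval 0.50 to 1.36, adjusted p = 0.00899). In count, 3 of 9 tested members differed between EBC-1 and PC-9, where 18.3% of 14636 genes did, 5 between EBC-1 and HCC827 (20.6%) and 3 between PC-9 and HCC827 (7.63%). As with the counts within lines, nothing is read from these beyond the genes named.

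IER3 fell further in HCC827 than in EBC-1, by 0.77 (95% interval 0.24 to 1.29, adjusted p = 0.0395). Its effect in HCC827 was also below that in PC-9, where the log2 fold change was 0.17, by 1.31 (95% interval 0.78 to 1.84, adjusted p = 0.00336). FOSL2 fell further in EBC-1, with -0.44 (95% interval -0.74 to -0.14, adjusted p = 0.0413) against PC-9 and -0.44 (95% interval -0.74 to -0.14, adjusted p = 0.0379) against HCC827. The calls for FOSL2 in both pairs and for IER3 between EBC-1 and HCC827 lie near the threshold and were lost without a filter, with a replicate block (adjusted p = 0.0608 for FOSL2 between EBC-1 and PC-9, 0.0554 for FOSL2 and 0.0696 for IER3 between EBC-1 and HCC827) and when any of several single libraries was left out. Equal-sum scaling also ended the call for FOSL2 between EBC-1 and PC-9 (-0.28, adjusted p = 0.103). For FOSL1 no pair passed, and the interval of EBC-1 against HCC827, -0.53 (95% interval -1.01 to -0.053, adjusted p = 0.111), does not show that the lines respond alike. JUNB did not pass in any pair either, with 0.32 (95% interval -0.16 to 0.79, adjusted p = 0.353) between EBC-1 and HCC827, the lines in which it fell. Without the first PC-9 nc library, 7 members differed between EBC-1 and PC-9 and 5 between PC-9 and HCC827. Calls over all genes also became more common, at 4781 and 2522 of 14656 genes against 2683 and 1117 of 14636 with all libraries. Added between EBC-1 and PC-9 were FOSL1 (-0.60, adjusted p = 0.0222), JUN (-0.59, adjusted p = 0.00515), JUNB (-0.51, adjusted p = 0.0312) and IER3 (-0.78, adjusted p = 0.00639). Added between PC-9 and HCC827 were JUN (0.47, adjusted p = 0.0311) and JUNB (0.82, adjusted p = 0.00453). Leaving out that library also brought FOSL1 past the threshold between EBC-1 and HCC827 (adjusted p = 0.0325), whose value it does not enter, as did leaving out the second PC-9 nc library (adjusted p = 0.0467) or the second EBC-1 nc library (adjusted p = 0.0450).

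The nc levels differed between the lines, and as the tables are separate these values are given without a test. FOSL1 was highest in EBC-1 (546 ± 87.5 FPKM, rank 48 among all listed genes), then HCC827 (178 ± 13.5) and PC-9 (37.2 ± 10.3), with no overlap between neighbours in this order and a range of 14.7-fold. FOSL2 was highest in EBC-1 (131 ± 11.0 FPKM), and PC-9 (35.5 ± 3.67) and HCC827 (32.2 ± 0.693) overlapped. FOS ran the other way, from PC-9 (4.69 ± 0.341 FPKM) over HCC827 (2.90 ± 0.887) to EBC-1 (1.24 ± 0.261), without overlap. FOSB was low in EBC-1 (0.613 ± 0.129 FPKM) and PC-9 (0.487 ± 0.0732), which overlapped, and lower in HCC827 (0.208 ± 0.0304). EGR1 showed the widest range, 25.1-fold, from HCC827 (68.0 ± 9.18 FPKM) to PC-9 (6.99 ± 0.975) and EBC-1 (2.71 ± 0.343). The line with the highest nc level of EGR1 was the one in which it fell, and the line with the lowest was the one in which it rose. The nc level also enters the fold change, and with 3 lines a link between level and change was not tested.

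JUN was ordered EBC-1 (109.8 ± 10.1 FPKM), HCC827 (71.9 ± 2.0) and PC-9 (42.0 ± 8.24) without overlap. JUNB levels overlapped along the whole order, PC-9 (108 ± 32.9 FPKM), EBC-1 (106 ± 6.54) and HCC827 (86.9 ± 10.5). JUND was highest in EBC-1 (159 ± 9.995 FPKM), and PC-9 (89.2 ± 33.6) and HCC827 (66.3 ± 13.1) overlapped. The same held for ATF3, with 5.03 ± 0.684, 2.91 ± 0.533 and 2.72 ± 0.417 FPKM in EBC-1, PC-9 and HCC827, and for IER3, with 266 ± 22.8, 73.7 ± 23.2 and 63.6 ± 12.4 FPKM. EBC-1 thus had the highest nc mean of 7 members, PC-9 of FOS and JUNB, and HCC827 of EGR1.

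The genes around the members were followed in 6 lists, and their counts stand beside 44.7%, 2.09% and 38% of all tested genes changed in EBC-1, PC-9 and HCC827, so nothing particular to a list is read from them. Other AP-1 bZIP genes, such as the BATF, MAF and ATF members, had calls in the downward direction only. Of 12 such genes, 3 of 8 tested fell in EBC-1, 0 of 7 changed in PC-9 and 2 of 8 fell in HCC827, and no tested gene passed upward. The EBC-1 count was 5 without the second nc library. CREB5, under the filter in every line and singled out after its values were seen, was higher in each shSYK library than in each nc library of its line, in all 3 lines, with means 3.44-fold higher in EBC-1, 1.68-fold in PC-9 and 1.28-fold in HCC827 at levels of 0.373 to 1.55 FPKM. Groups were fully apart for 23.7% (PC-9) to 56.9% (EBC-1) of tested genes in a line. A share for genes under the filter or for all lines jointly is not given here. MAFF, a small MAF protein induced early after stimulation, fell from 14.2 ± 0.948 to 9.0 ± 0.214 FPKM in EBC-1 (log2 fold change -0.61, adjusted p = 0.000791) and from 10.1 ± 1.29 to 5.49 ± 0.531 FPKM in HCC827 (-0.77, adjusted p = 0.0015). The median log2 fold change of the tested genes was -0.19, 0.011 and -0.028 in EBC-1, PC-9 and HCC827, beside the medians of all genes given above.

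Other immediate early genes moved in both directions. Of 32, 7 rose and 11 fell among 27 tested in EBC-1, 2 rose and 2 fell among 25 in PC-9, and 6 rose and 10 fell among 25 in HCC827, with medians of -0.22, 0.010 and -0.071. The PC-9 count of 4 was 0 without a filter, 0 without the third nc library or any 1 of the shSYK libraries, and 8 in the fit of 18 libraries. KLF6, a zinc finger factor, rose in EBC-1 from 12 ± 1.12 to 18.9 ± 3.50 FPKM (0.61, adjusted p = 0.00876) and in HCC827 from 9.05 ± 0.312 to 16.9 ± 1.46 FPKM (0.83, adjusted p = 0.000327). In PC-9 KLF6 rose too, from 11.3 ± 0.838 to 18.6 ± 1.34 FPKM (0.66, adjusted p = 0.0283), a value singled out after it was seen, and this call was lost in each of the PC-9 settings just named in which the count was 0. GADD45B, a growth arrest and stress gene, had the largest fall in EBC-1, from 42.7 ± 0.814 to 14.1 ± 0.718 FPKM (-1.54, adjusted p = 2.38e-05). IER5L, a relative of IER5, had the largest in HCC827, from 19.2 ± 2.84 to 6.97 ± 1.99 FPKM (-1.36, adjusted p = 0.00143). The phosphatase gene DUSP1 had the largest rise in PC-9, from 6.59 ± 0.418 to 11.6 ± 0.764 FPKM (0.73, adjusted p = 0.0157), and leaving out any of 4 PC-9 libraries (the third nc library or any shSYK library) raised its adjusted p to between 0.0947 and 0.128.

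Among 16 upstream regulators, kinases and factors that act on these promoters, 4 rose and 4 fell of 15 tested in EBC-1, 0 of 15 changed in PC-9, and 3 rose and 3 fell of 15 in HCC827. The EBC-1 count of 8 was 5 with a replicate block, in the fit of 18 libraries, at a mean FPKM of 5 or more, and without the first or the third nc or the second shSYK library. The HCC827 count of 6 was 3 without a filter, 2 in the fit of 18 libraries, and 3 without the first or the third nc or the first or second shSYK library. MAPK3, which encodes ERK1, fell in EBC-1 from 26.3 ± 1.82 to 15.5 ± 1.22 FPKM (-0.73, adjusted p = 0.00074) and in HCC827 from 20.4 ± 0.987 to 13.6 ± 0.972 FPKM (-0.55, adjusted p = 0.00114). RPS6KA3, which encodes the ERK-activated kinase RSK2, rose in EBC-1 from 6.57 ± 0.813 to 11.0 ± 0.796 FPKM (0.67, adjusted p = 0.00172). SP3, a GC box factor, had the largest rise in HCC827 among regulators averaging 5 FPKM or more, at 0.18 (adjusted p = 0.0384), which no longer passed when any library of the line was left out. SP1, a GC box factor that the study also followed, passed in no line, with -0.14 (adjusted p = 0.194) in EBC-1, -0.13 (adjusted p = 0.67) in PC-9 and -0.081 (adjusted p = 0.346) in HCC827. The medians of the tested regulators were 0.049, 0.012 and -0.025 in EBC-1, PC-9 and HCC827.

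Of 11 ERK feedback genes, which reflect and restrain ERK signalling, 1 rose and 1 fell of 11 tested in EBC-1, 0 rose and 1 fell of 10 in PC-9, and 2 rose and 5 fell of 11 in HCC827, with medians of 0.056, -0.20 and -0.20. DUSP6, an ERK phosphatase, rose in EBC-1 from 10.9 ± 0.590 to 15.7 ± 0.955 FPKM (0.49, adjusted p = 0.00213) and fell in HCC827 from 11.7 ± 0.998 to 8.61 ± 0.933 FPKM (-0.40, adjusted p = 0.0119). In PC-9 it was at 9.55, 8.91 and 11.1 FPKM in nc and 7.60, 6.10 and 7.40 FPKM in shSYK, lower without overlap, but -0.44 (adjusted p = 0.136) did not pass. The related phosphatase gene DUSP4 fell in EBC-1 (-0.43, adjusted p = 0.00307), SPRED2 rose in HCC827 (0.32, adjusted p = 0.00522) and SPRY1 fell in PC-9 (-0.67, adjusted p = 0.0211). The SPRY1 call was lost on leaving out any of the same 4 PC-9 libraries as for DUSP1, with adjusted p between 0.0960 and 0.151. With equal-sum scaling 5 feedback genes changed in EBC-1 in place of 2, and without the second shSYK library 4 changed in HCC827 in place of 7.

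Known AP-1 target genes, such as proteases, cytokines and growth factors, were also split. Of 26, 5 rose and 8 fell among 21 tested in EBC-1, 3 rose and 1 fell among 16 in PC-9, and 6 rose and 3 fell among 17 in HCC827, with medians of -0.19, 0.034 and -0.089. CD44, a hyaluronan receptor, rose in EBC-1 from 8.06 ± 0.198 to 22.6 ± 3.62 FPKM (1.37, adjusted p = 0.000182), whereas the cytokine gene IL1B fell from 10.7 ± 0.725 to 3.64 ± 0.427 FPKM (-1.33, adjusted p = 0.000102). CD44 also rose in PC-9, from 82.4 ± 0.660 to 124 ± 6.11 FPKM (0.59, adjusted p = 0.0364). Its rise in HCC827 was smaller, from 21.0 ± 0.775 to 26.3 ± 1.45 FPKM (0.31, adjusted p = 0.00669). These further CD44 values were singled out after they were seen, and other settings for them are not given here. In PC-9 the cyclin gene CCND1 fell from 67.7 ± 3.59 to 46.8 ± 1.47 FPKM (-0.52, adjusted p = 0.0489), a call near the threshold that was lost without any of the same 4 libraries (adjusted p between 0.224 and 0.263). In HCC827 the urokinase gene PLAU rose from 122 ± 13.4 to 199 ± 11.8 FPKM (0.71, adjusted p = 0.00134) and the chemokine gene CXCL8 fell from 16 ± 9.73 to 4.37 ± 1.3 FPKM (-1.55, adjusted p = 0.0132). The third nc library held 27.2 FPKM of CXCL8 against 9.61 and 11.2 in the others, the log2 fold change was -1.11 without it, and the call was lost without a filter (adjusted p = 0.0597). The PC-9 count of 4 target genes was 1 without a filter, with a replicate block, or without any of the same 4 libraries.

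Heat shock genes, which share stress induction with ATF3 and FOS, moved in both directions in EBC-1. Of 11, 5 rose and 5 fell in EBC-1, 0 of 10 tested changed in PC-9, and 3 rose and 2 fell of 10 in HCC827, with medians of -0.013, 0.25 and 0.014. The HCC827 count of 5 was 3 without a filter or without the first or the third library of either group, and the PC-9 count was 2 without the first nc library and 5 in the fit of 18 libraries. HSPA6, a strictly stress-induced HSP70 gene with a near-identical copy, HSPA7, that could share its reads, fell in EBC-1 from 12.2 ± 3.04 to 0.365 ± 0.168 FPKM (-3.26, adjusted p = 4.12e-05). DNAJA1, a constitutive co-chaperone, rose there from 44.4 ± 0.774 to 71.2 ± 3.62 FPKM (0.67, adjusted p = 0.000374). HSPD1 rose in HCC827 (0.49, adjusted p = 0.00193) and DNAJB1 fell (-0.32, adjusted p = 0.02), the latter no longer past the threshold without any of 4 libraries (adjusted p between 0.0554 and 0.0694). The other 4 that fell in EBC-1 were HSPA1A, HSPA1B, HSPB1 and DNAJB1, named after their values were seen, where the near-identical HSPA1A and HSPA1B can share reads. Like HSPA6, they moved in the direction of ATF3 there, while the 5 that rose, DNAJA1 among them, moved in the other. The part of these genes in the ATF3 result was not tested.

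**Figure D5:**
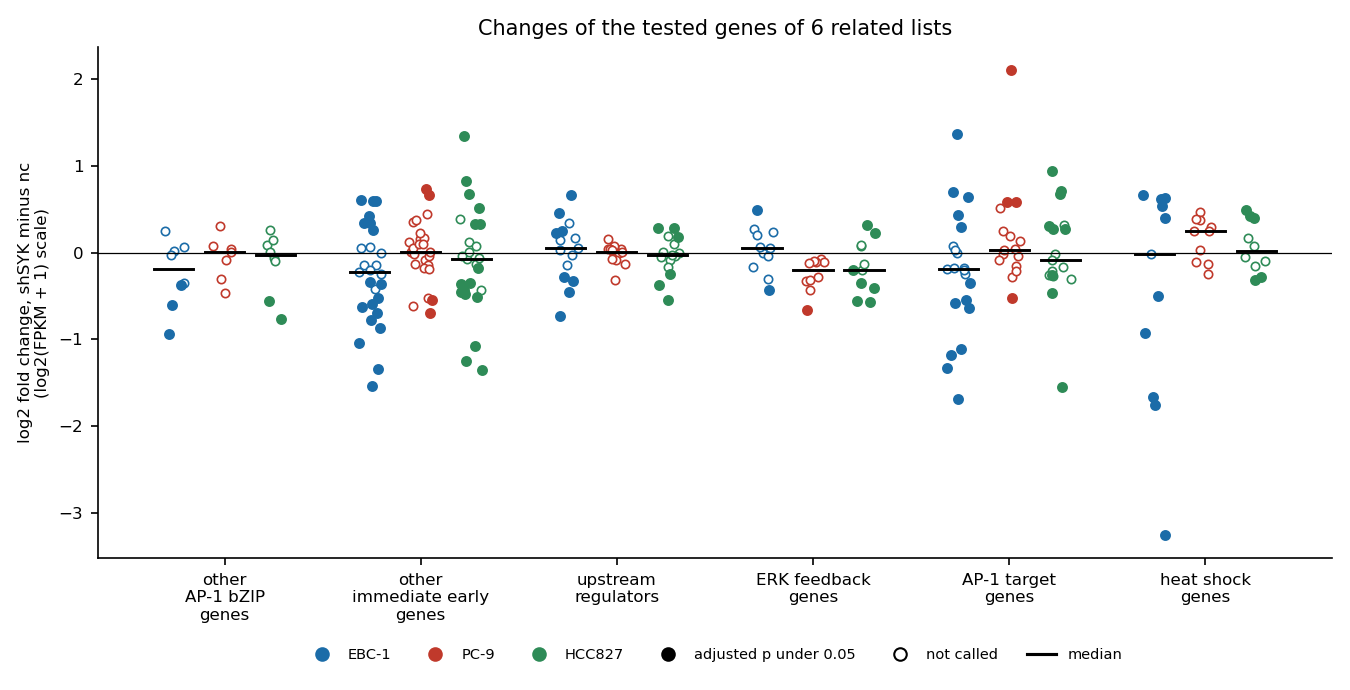
Log2 fold changes (shSYK minus nc) of the tested genes of the 6 lists, with 1 point per gene, filled where the adjusted p was under 0.05, and a bar for the median of each list in each line. The lists hold filled points on both sides of 0 in EBC-1 and HCC827 except the other AP-1 bZIP genes, whose 3 and 2 filled points among 8 tested genes lie below 0, and the lowest point is HSPA6 in EBC-1 at -3.26.

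MYC, an immediate early factor outside AP-1, fell in EBC-1 from 188 ± 21.2 to 122 ± 11.9 FPKM (-0.62, adjusted p = 0.00317) and did not pass in PC-9 (0.35, adjusted p = 0.273) or HCC827 (-0.064, adjusted p = 0.527), but passed in PC-9 without the first nc library (0.46, adjusted p = 0.0494). The genes whose levels ran most like FOSL1 over the 18 libraries, after the mean of each cell line was removed, were DPP9, COTL1 and DBN1, with Pearson correlations of 0.953, 0.923 and 0.910 among 5156 genes compared. Those most like FOS were RALGDS, RTN3 and TMC4, at 0.928, 0.918 and 0.917 among 5157. Libraries of a line come from 1 table, and depth and base composition were not removed, so the values are a description. Without the first PC-9 nc library the same genes led in the same order, and with equal-sum scaling they stayed within the first 3 for FOSL1 and the first 6 for FOS.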

How the data were processed

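RNA of 18 libraries (3 cell lines, nc and shSYK, 3 libraries each) was sequenced on Illumina HiSeq. The authors deposited 1 table of FPKM values per cell line, with 58302 genes. The submitters' processing notes list CASAVA and HISAT2 without versions and the builds GRCh37, GRCh38, hg19 and hg38, the study's methods name hg38, and the counter and its strand setting are not given in the sources used here. FPKM values came out as whole reads after scaling, with deviations of at most 3.21e-05 read, which gave 7920099 to 15729103 reads on genes per library. The tables held 0 columns that could not be mapped to a sample.

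Values were log2(FPKM + 1) of genes whose FPKM averaged 1 or more across the 6 libraries of a line. They were tested with limma 3.58.1 (moderated, with a variance trend, two-sided) in R 4.3.3, with Benjamini-Hochberg adjustment over all genes tested and a threshold of 0.05. Differences between lines were tested in 1 fit of all 18 libraries on genes that passed in at least 1 line, adjusted within each pair. Tables were made with Python 3.11.15, numpy 2.4.6, pandas 2.3.3 and scipy 1.17.1, and plots with matplotlib 3.10.9. The fit was tested on simulated data.

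The members and gene lists were chosen with earlier results of these data known. Named beside SYK and the members were, from each list and line, the genes with the largest rise and fall past the threshold at a mean FPKM of at least 5, SP1, MYC, and the 3 genes most like FOSL1 and the 3 most like FOS, the latter among genes averaging 5 FPKM or more in each line. The result for 1 gene that this rule names is not reported here. Alternatives were a pseudocount of 0.1, no filter or a mean FPKM of at least 5, equal-sum scaling, quantile normalization, no variance trend, a replicate block, limma-voom on recovered reads, a fit of 18 libraries, and leaving out each library. Likeness under equal-sum scaling and without the first PC-9 nc library was added after seeing the data. With 3 libraries against 3, an exact permutation test of 1 gene cannot go below p = 0.1, so none is given.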

Additional observations from a re-analysis of the deposited data

Results flagged for a closer look

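For 5 members the cell lines responded unequally to SYK knockdown by a test of the difference itself, in 11 of 27 differences tested, where 18.3% of all genes differed between EBC-1 and PC-9, 20.6% between EBC-1 and HCC827 and 7.63% between PC-9 and HCC827. The share of all genes that differed in any pair is not given here, and the differences of a gene share libraries. Nothing is read from these counts beyond the genes named. The log2 fold change of EGR1 in EBC-1 exceeded that in HCC827 by 2.52 and that in PC-9 by 1.07, and PC-9 exceeded HCC827 by 1.44. For ATF3 the difference was -1.34 for EBC-1 minus PC-9 and -1.05 for EBC-1 minus HCC827. FOS gave 0.90 for EBC-1 minus HCC827 and 0.93 for PC-9 minus HCC827. IER3 gave 0.77 and 1.31 for the same pairs. FOSL2 gave -0.44 for EBC-1 minus PC-9 and -0.44 for EBC-1 minus HCC827. Both FOSL2 calls and that of IER3 between EBC-1 and HCC827 were lost without a filter and with a replicate block (adjusted p = 0.0608, 0.0554 and 0.0696).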

How the results depend on the processing

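The 10 member calls within cell lines were recomputed in 148 alternatives, of which 146 left the call in place, 0 turned its sign and 2 lost it, IER3 in EBC-1 (adjusted p = 0.0982) and FOSL1 in HCC827 (adjusted p = 0.0694), both in the limma fit of 18 libraries. FOS in HCC827 and ATF3 in EBC-1 are not tested at a mean FPKM of at least 5. Members that passed no threshold turned sign under equal-sum scaling, namely FOSL1 (0.0039) and JUND (0.071) in EBC-1 and JUN (0.0031) and JUND (0.039) in HCC827, and under quantile normalization, at 0.15, 0.084, 0.013 and 0.058 in the same order. Of the differences, FOS between EBC-1 and PC-9 turned under equal-sum scaling (0.040), JUND between EBC-1 and HCC827 under equal-sum scaling (0.033) and quantile normalization (0.039), and FOSL2 between PC-9 and HCC827 with a pseudocount of 0.1 (0.0005). Why these signs turned was not tested. Leaving out single libraries also turned signs, over ranges of -0.12 to 0.053 for JUND in EBC-1, -0.40 to 0.16 for JUND and -0.0096 to 0.41 for IER3 in PC-9, and -0.16 to 0.026 for JUN and -0.16 to 0.13 for JUND in HCC827. For differences these ranges were -0.13 to 0.040 (FOS) and -0.22 to 0.34 (JUND) between EBC-1 and PC-9, -0.19 to 0.10 (JUND) between EBC-1 and HCC827, and -0.32 to 0.066 (FOSL1), -0.082 to 0.11 (FOSL2) and -0.37 to 0.18 (JUND) between PC-9 and HCC827. SYK in PC-9 lost its call only without the first shSYK library (adjusted p = 0.0648). The count of genes changed in EBC-1 (5562) was 3579 at a mean FPKM of at least 5, where fewer genes were tested. The PC-9 count (253) was 47 without a filter, 491 with equal-sum scaling, 489 with quantile normalization, 413 with limma-voom on recovered reads, 1513 in the fit of 18 libraries and 7 to 621 without single libraries, with 0 members throughout. Members that differed between EBC-1 and HCC827 (5) were 3 without a filter, 3 at a mean FPKM of at least 5 and 3 to 6 without single libraries, and those between EBC-1 and PC-9 (3) were 2 to 7 and between PC-9 and HCC827 (3) were 3 to 5 without single libraries. Genes that differed between EBC-1 and PC-9 (2683) were 1990 to 4781 without single libraries, and those between EBC-1 and HCC827 (3008) were 2360 to 4057. Those between PC-9 and HCC827 (1117) were 680 with limma-voom and 798 to 2522 without single libraries. Equal-sum scaling moved the median of all genes in EBC-1 to 0.12 and the rising share of changed genes from 51.7% to 67.9% there, from 45.4% to 56.6% in HCC827 and from 50.6% to 68.6% for EBC-1 against PC-9. In PC-9 that share was 32.4%, 46.8% without a filter and 43.6% in the fit of 18 libraries.

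Libraries with the same replicate number correlated in their deviations from the group means by 0.034, -0.16 and -0.22 in EBC-1, -0.053, 0.33 and -0.12 in PC-9 and 0.0017, 0.063 and 0.024 in HCC827, so the number does not pair them. With a replicate block, 3 members differed between EBC-1 and HCC827, 740 genes differed between PC-9 and HCC827, and the 10 member calls within lines stood. Depth limits FOSB and FOS most, which rest on few reads per library.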
